A study of Mus musculus with 20 samples.

Results

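Lung RNA of mice given Shegan-Mahuang Decoction was set against lung RNA of control mice, over all genes measured. Shegan-Mahuang Decoction (SMD) is a traditional Chinese herbal formula of several plants, Ephedra among them, used for wheezing disease. The comparison takes the 5 libraries whose treatment label is the SMD group and the 5 libraries labelled control, 10 of the 20 libraries of the series. The other 10 libraries, 5 labelled model and 5 labelled prednisone, enter the fit of the spread and are quoted as levels only. All groups carry the genotype label wt, and the series text gives 15 mice to each of the 4 groups. How the asthma model was made, whether the SMD mice also went through it, the strain, age and sex, and the doses and times are not stated in the labels or the series text, so the comparison holds everything that separated the SMD from the control mice. Separate samples are what the labels call the libraries, without saying that each is 1 animal. A p-value of the fit sets a difference only against the spread of libraries within the 4 groups, and part of that spread may be technical.

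Lung tissue is made of gas-exchanging alveolar type 1 cells, surfactant-secreting alveolar type 2 cells, airway club and ciliated cells, a dense endothelium, and resident macrophages and lymphocytes. Circulating glucocorticoid hormone acts on nearly all of these cells through the glucocorticoid receptor, which induces a shared set of genes such as Tsc22d3, Fkbp5, Zbtb16 and Klf9, and the hormone follows a daily rhythm set by the circadian clock. Interferons act on the same cells through STAT proteins and raise antiviral genes, the guanylate-binding proteins and the class I antigen-presentation genes. Asthma therapy leans on inhaled or oral glucocorticoids and on bronchodilators, and Ephedra contains ephedrine, which acts on adrenergic receptors.

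The lung markers were high in both groups. Sftpc, the surfactant protein of alveolar type 2 cells, averaged 13660 FPKM in SMD libraries and 12540 FPKM in control libraries, where FPKM is the number of fragments on a gene scaled by its length and by the mapped total of the library. Sftpb averaged 823 and 746 FPKM, Ager of alveolar type 1 cells 827 and 772 FPKM, Scgb1a1 of club cells 47420 and 52180 FPKM, and Cldn5 of endothelium 145 and 144 FPKM, in SMD and control libraries. None of the 5 markers passed the test. The sum of FPKM per library ran from 403518 to 438315 in the SMD group and from 406764 to 522361 in the control group, where control replicate 1 stood alone at the top. The number of reads behind a value is unknown, since FPKM values keep no counts.

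Levels of genes of fat and heart, tissues that can be carried over with dissected lung, differed between the groups and are given before any other result. A fat score was the mean log2(FPKM + 1) over the fat genes, of 12 listed, that reached an FPKM of 1 in 5 or more libraries. It ran from 1.18 to 1.75 in the SMD libraries and from 2.03 to 4.73 in the control libraries. The groups thus did not overlap (exact permutation test over 252 arrangements, two-sided p = 0.0079, the smallest these can give). The control scores were 4.35, 2.05, 2.03, 4.73 and 3.22 for replicates 1 to 5, so replicates 1, 4 and 5 had the highest. Adipoq, the adipocyte hormone adiponectin, had 1.56, 0.952, 0.783, 0.262 and 1.11 FPKM in SMD libraries, against 35.7, 3.22, 2.68, 40.5 and 11.4 FPKM in control libraries. Lep, the adipocyte hormone leptin, was near 0 throughout, at a mean of 0.00306 FPKM in SMD libraries and 0.234 FPKM in control libraries. A cardiac muscle score was made the same way from a list of 14 genes. It ran from 2.79 to 3.43 in SMD libraries and from 3.40 to 5.15 in control libraries (exact permutation test, two-sided p = 0.0159). Scores for skeletal muscle and red cells overlapped between the groups (exact permutation test, two-sided p = 0.0873 and p = 0.246). The gene lists and tests were chosen with earlier results of these data known, so the p-values of the scores are descriptions.

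**Figure D1:**
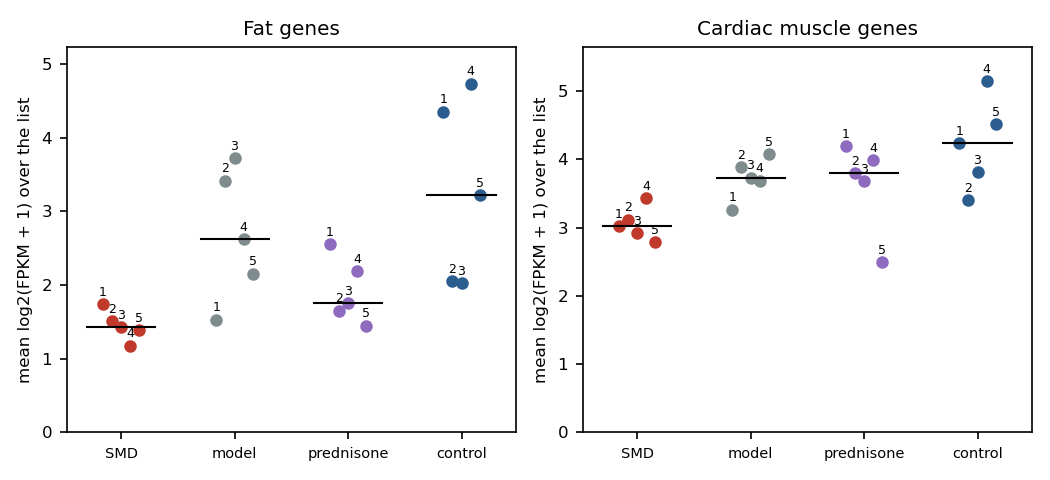
Fat and cardiac muscle scores for every library of the SMD, model, prednisone and control groups, with the replicate number above each point and a bar at the group median. A score is the mean log2(FPKM + 1) over the genes of the list that reached an FPKM of 1 in 5 or more libraries. The SMD libraries sit between 1.18 and 1.75 on the fat axis, below all 5 control libraries, and control replicates 1, 4 and 5 are the control libraries with a fat score above 3.

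Among 15106 genes tested, 159 (1.05%) were called at an adjusted p under 0.05 by limma on log2(FPKM + 1), of which 44 (0.291%) rose and 115 (0.761%) fell in SMD lung. The changes were small for most of them, with a median log2 fold change of 0.54 over the genes that rose and -0.56 over those that fell, and 20 genes passed 1 in size. The 5 SMD and 5 control libraries did not overlap for 141 of the 159, and over all genes tested they did not overlap for 315 with SMD higher (2.09%) and 389 with SMD lower (2.58%). At an unadjusted p under 0.05, 979 genes were higher (6.48%) and 1218 lower (8.06%), where 755 in all are expected by chance. The median log2 fold change over all genes tested was -0.0038. After quantile normalization of the libraries the split was 91 higher and 122 lower, against 44 and 115 without scaling.

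The number of calls moved with single libraries and with the fat and cardiac scores. Leaving out 1 library gave 123, 45, 38, 47 and 37 calls without SMD replicates 1 to 5, and 66, 217, 97, 19 and 81 calls without control replicates 1 to 5. Of the 159 genes, 18 were called in all 10 of these fits and 8 in none, and all 159 kept their direction in each. With the cardiac score as a covariate in limma 1 gene was called, none of the 159, and 880 genes had an unadjusted p under 0.05. When the fat score entered limma instead, no gene was called and 932 had an unadjusted p under 0.05, and without control replicates 1, 4 and 5, an alternative chosen after the scores were seen, no gene was called and 1089 had an unadjusted p under 0.05. All 159 genes kept their direction in these 3 fits, 135 of them at an unadjusted p under 0.05 with the cardiac score, 143 with the fat score and 149 without the 3 libraries. The median ratio of the new log2 fold change to the reported one was 0.77 with the cardiac score, 0.81 with the fat score and 0.87 without the libraries.

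**Figure D2:**
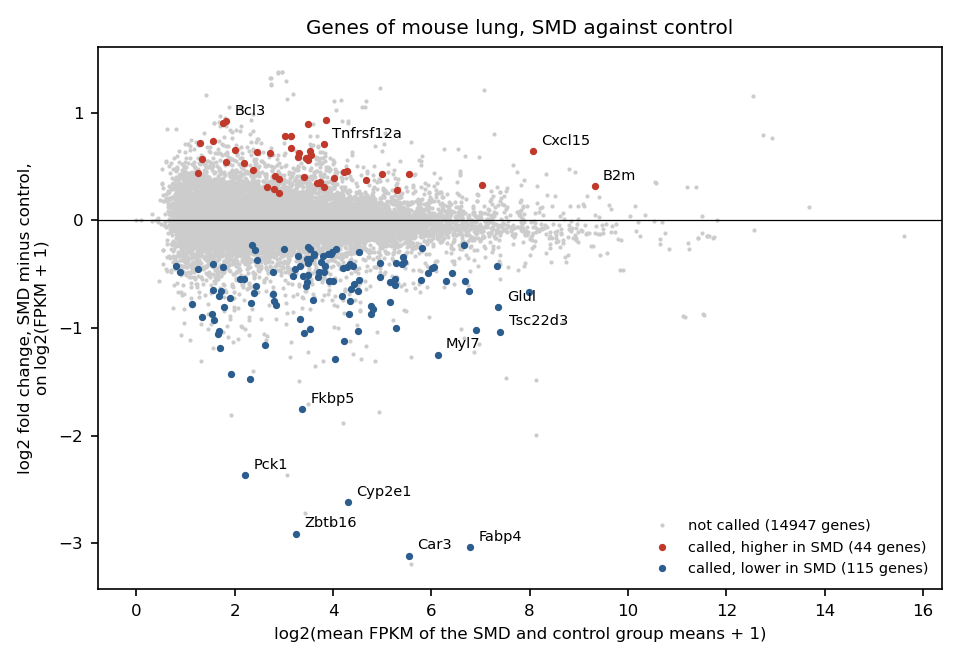
Log2 fold change (SMD minus control, on log2(FPKM + 1)) against mean level for the 15106 genes tested, with the 44 called genes that rose in red and the 115 that fell in blue. The largest falls among the labelled genes are Car3 (-3.12), Fabp4 (-3.04) and Zbtb16 (-2.91). The gene with the largest level among the labelled rises is B2m (0.32).

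Of the lists described, the genes that glucocorticoids induce held the most called members. Of 23 genes in that list 21 were tested, 9 fell and none rose, set against the 0.761% of all genes that fell, and the median log2 fold change was -0.79. Zbtb16, Fkbp5, Map3k6, Klf15, Tsc22d3, Angptl4, Sult1a1, Klf9 and Glul were the 9. At an unadjusted p under 0.05, 15 of the 21 were lower, beside 8.06% of all genes. The list holds genes known from earlier results of these data, so its count is a description.

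Zbtb16, a zinc finger transcription factor that is among the most hormone-responsive genes of many tissues, had 1.64, 1.28, 0.962, 1.38 and 0.719 FPKM in SMD libraries, against 16.8, 9.30, 18.7, 19.1 and 15.0 FPKM in control libraries. Every SMD library lay far below every control library. It fell by 2.91 ± 0.36 (SE) on the log2 scale (limma, adjusted p = 0.00254), was called in all 10 fits that leave out 1 library, and fell by 2.36 once adjusted for the fat score (limma, unadjusted p = 7.185e-05). Model libraries averaged 13.8 FPKM and prednisone libraries 18.1 FPKM.

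Fkbp5, a co-chaperone that lowers the affinity of the glucocorticoid receptor for its hormone, had 6.30, 3.35, 3.23, 2.89 and 1.66 FPKM in SMD libraries, against 18.8, 6.23, 15.0, 27.7 and 8.28 FPKM in control libraries. The groups touched at one point, where SMD replicate 1 lay above control replicate 2. It fell by 1.76 ± 0.37 (SE) on the log2 scale (limma, adjusted p = 0.0336). Tsc22d3, which encodes the anti-inflammatory protein GILZ, had 183, 66.5, 111, 78.3 and 127 FPKM in SMD libraries, against 235, 171, 208, 319 and 185 FPKM in control libraries. Again the single overlap came from SMD replicate 1, and the fall was 1.03 on the log2 scale (limma, adjusted p = 0.0437). Fkbp5 was called in 3 and Tsc22d3 in 2 of the 10 fits that leave out 1 library.

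Klf9, a Krüppel-like transcription factor, had 17.0, 13.4, 9.94, 13.6 and 12.4 FPKM in SMD libraries, against 21.9, 21.2, 25.7, 31.3 and 25.1 FPKM in control libraries. The groups did not overlap, and Klf9 fell by 0.87 ± 0.15 (SE) on the log2 scale (limma, adjusted p = 0.0139), a call lost only without control replicate 4 among the 10 fits that leave out 1 library. Klf15, of the same family, averaged 11.1 ± 5.08 FPKM in SMD libraries and 24.5 ± 7.00 FPKM in control libraries (SD, n = 5 each). Its SMD replicate 1, at 19.9 FPKM, lay inside the control range of 18.4 to 35.6 FPKM. The fall of Klf15 was 1.12 on the log2 scale (limma, adjusted p = 0.0341), called in 3 of those 10 fits.

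Metabolic members of the list moved the same way. Angptl4, a secreted inhibitor of lipoprotein lipase, averaged 6.70 ± 1.68 FPKM in SMD libraries and 14.6 ± 3.65 FPKM in control libraries, a fall of 1.01 on the log2 scale (limma, adjusted p = 0.0262). Sult1a1, a phenol sulfotransferase, averaged 24.6 ± 5.21 and 51.4 ± 17.7 FPKM in SMD and control libraries, Glul, glutamine synthetase, 118 ± 25.3 and 209 ± 53.1 FPKM, and Map3k6, a stress-activated kinase, 2.83 ± 1.01 and 7.48 ± 1.85 FPKM (SD, n = 5 each). Angptl4, Sult1a1 and Map3k6 did not overlap between the groups, and Glul overlapped through SMD replicate 1 at 162 FPKM. Of the 10 fits that leave out 1 library, Angptl4 was called in 5, Sult1a1 in 4, and Glul and Map3k6 in 2 each. Klf9, Angptl4 and Sult1a1 are named here after their values were seen.

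Not all of the list took part. Sgk1, a serum- and glucocorticoid-regulated kinase, averaged 49.1 FPKM in SMD libraries and 51.7 FPKM in control libraries, and Dusp1, a phosphatase that shuts off MAP kinases, 155 and 151 FPKM in SMD and control libraries. Lcn2, an iron-binding antibacterial protein, averaged 59.7 FPKM in SMD libraries and 34.5 FPKM in control libraries without overlap, with an adjusted p of 0.42 by limma. Nr3c1, the glucocorticoid receptor itself, averaged 20.8 ± 2.02 FPKM in SMD libraries and 20.2 ± 1.79 FPKM in control libraries (SD, n = 5 each), a difference within the spread of the libraries.

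The number of list members that fell depended on the libraries. It was 10, 2, 2, 2 and 3 without SMD replicates 1 to 5 and 2, 10, 4, 1 and 6 without control replicates 1 to 5, and 0 once the fat or the cardiac score was a covariate or without control replicates 1, 4 and 5. The list's median stayed negative throughout, between -0.93 and -0.40 over all alternatives, at -0.54 both with the fat score and without the 3 control libraries and at -0.40 with the cardiac score. In these fits 9, 10 and 8 members were lower at an unadjusted p under 0.05, and the value of Fkbp5 was -1.10 with the cardiac score. The part of either score in the fall was not tested beyond these fits. In bulk tissue, fewer cells of a type and less RNA per cell cannot be told apart.

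**Figure D3:**
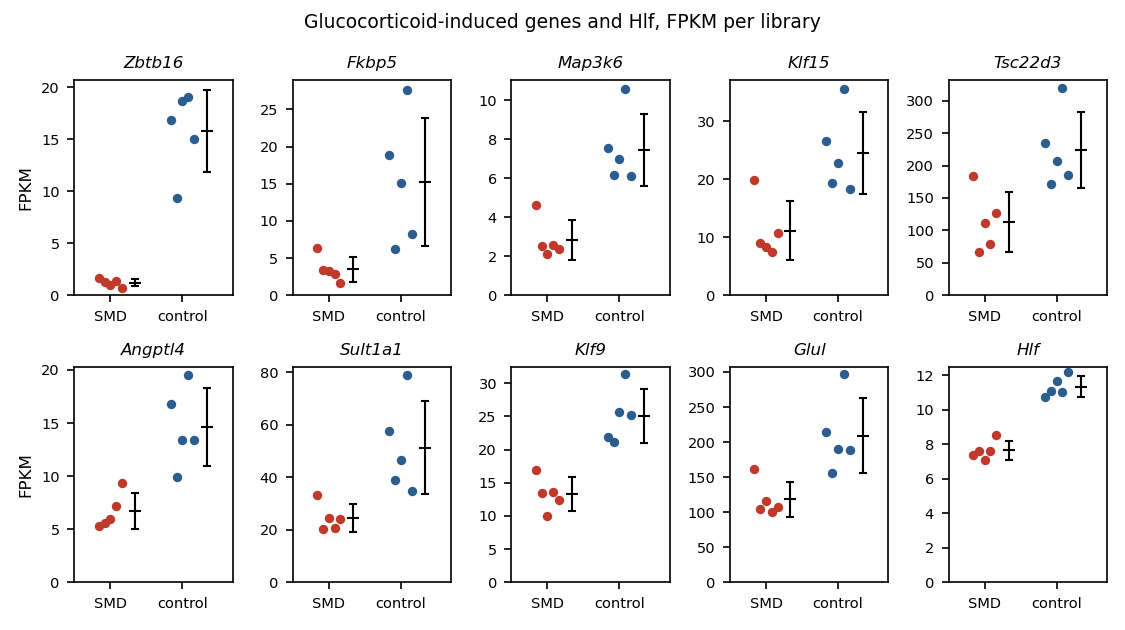
FPKM of the 9 glucocorticoid-induced genes that fell and of the clock gene Hlf in each SMD and control library, with the group mean and SD (n = 5 each) beside the points. Zbtb16 stays at or under 1.64 FPKM in SMD libraries and at or above 9.30 FPKM in control libraries. SMD replicate 1, the leftmost red point, is the highest SMD library for all of the 9 but Angptl4, where it is the lowest.

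Genes of the circadian clock, the daily oscillator in which CLOCK and BMAL1 drive their own repressors, fell in part. Of 18 genes 16 were tested, 3 fell (Hlf, Per2 and Tef) and none rose, beside 0.761% of all genes that fell, with a median log2 fold change of -0.22. Hlf, a clock-driven transcription factor, had 7.41, 7.60, 7.09, 7.65 and 8.55 FPKM in SMD libraries, against 10.8, 11.1, 11.7, 11.0 and 12.2 FPKM in control libraries. These groups were clearly apart, the fall was 0.51 ± 0.07 (SE) on the log2 scale (limma, adjusted p = 0.00521), and the call held in all 10 fits that leave out 1 library. Tef, a relative of Hlf, averaged 36.6 and 48.4 FPKM in SMD and control libraries, and Per2, a repressor of the clock that glucocorticoids also induce, 15.6 and 21.4 FPKM. Per2 and Tef did not overlap between the groups, with adjusted p-values of 0.038 and 0.0217 by limma. Per2 was called in 2 and Tef in 6 of the 10 fits that leave out 1 library.

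The 250 bases before the start of Fkbp5 are shown as the reference promoter of the glucocorticoid-induced gene whose product acts back on the receptor. The window ends at the RefSeq start on GRCm38.p6 and is read 5′ to 3′ on the minus strand at chr17:28486150-28486399.
Fkbp5: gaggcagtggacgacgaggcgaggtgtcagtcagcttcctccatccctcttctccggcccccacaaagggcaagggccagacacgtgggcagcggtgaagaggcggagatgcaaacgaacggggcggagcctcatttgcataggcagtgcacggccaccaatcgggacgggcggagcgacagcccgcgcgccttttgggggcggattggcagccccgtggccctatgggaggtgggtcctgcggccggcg

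Genes that fell outside these lists and held in all 10 fits that leave out 1 library, named after their values were seen, were led by Fam13a, a GTPase-activating protein gene. It had 7.07, 4.93, 4.92, 6.35 and 6.51 FPKM in SMD libraries, against 11.98, 9.54, 11.3, 13.9 and 13.8 FPKM in control libraries. The groups did not overlap, and it fell by 0.91 ± 0.12 (SE) on the log2 scale (limma, adjusted p = 0.00334). Cpe, carboxypeptidase E of peptide hormone processing, fell by 0.70, Mertk, a receptor by which macrophages clear dying cells, by 0.68, Klf13 by 0.56, and Wee1, a kinase that holds back entry into mitosis, by 0.51 on the log2 scale. Tcim fell by 0.76, Tmc6 by 0.51 and Shroom2, an actin-binding protein, by 0.41 on the log2 scale, and none of these genes overlapped between the groups. Their adjusted p-values by limma ran from 0.00684 to 0.0112.

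Sema7a, a membrane-anchored semaphorin, had 18.9, 12.6, 9.94, 14.6 and 13.5 FPKM in SMD libraries, against 29.0, 23.1, 28.9, 40.5 and 25.3 FPKM in control libraries. It fell by 1.03 on the log2 scale without overlap (limma, adjusted p = 0.0145). Fas, the death receptor, averaged 14.0 ± 1.37 FPKM in SMD libraries and 24.6 ± 5.92 FPKM in control libraries (SD, n = 5 each) and fell by 0.75 on the log2 scale (limma, adjusted p = 0.0187). It was the only called one of 17 tested genes of the BCL2 family and the TRAIL pathway, beside 0.761% of all genes that fell. The median of that list was 0.01. Bcl2l1, which encodes the survival protein BCL-XL, averaged 24.2 FPKM in SMD libraries and 47.9 FPKM in control libraries, with an adjusted p of 0.071 by limma. Slc6a2, the norepinephrine transporter, fell by 0.92 and Cdkn1c, a cell cycle inhibitor, by 0.59 on the log2 scale. Both were named after their values were seen, and neither overlapped between the groups.

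Fam107a, an actin-associated stress protein, averaged 1.54 and 6.43 FPKM in SMD and control libraries and fell by 1.47 on the log2 scale (limma, adjusted p = 0.0341). It was called in 2 of the 10 fits that leave out 1 library, and adjusting for the fat score gave a log2 fold change of -1.09.

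Genes abundant in fat were among the largest falls. Car3, a carbonic anhydrase of adipocytes and muscle, had 8.97, 5.70, 5.42, 2.62 and 4.66 FPKM in SMD libraries, against 143, 12.9, 17.2, 196 and 59.1 FPKM in control libraries. Control replicates 4, 1 and 5 were the highest, as for the fat score, and Car3 fell by 3.12 on the log2 scale (limma, adjusted p = 0.0462), against -0.31 with the fat score as a covariate. Fabp4, a fatty acid carrier of adipocytes and macrophages, averaged 15.4 and 203 FPKM, Cyp2e1, a cytochrome P450 of liver and fat, 2.65 and 35.0 FPKM, and Pck1, a gluconeogenic and glyceroneogenic enzyme, 0.0852 and 7.18 FPKM in SMD and control libraries. Ephx2, soluble epoxide hydrolase, averaged 0.866 and 4.76 FPKM, and Plin4, a lipid droplet coat protein, 0.855 and 3.67 FPKM. With the covariate their log2 fold changes were -0.47, -0.25, -0.62, -0.25 and -0.22, none of them at an unadjusted p under 0.05. In the fat list itself 10 of 12 genes were tested and 2 fell (Pck1 and Plin4), beside 0.761% of all genes that fell. All 10 were lower, and the median was -1.84, against 0.02 with the covariate, which is built from the same genes.

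Muscle genes were lower as well, few of them called. Myl7, the atrial myosin light chain, had 37.6, 43.1, 35.5, 42.8 and 33.4 FPKM in SMD libraries, against 93.5, 51.1, 73.3, 160 and 120 FPKM in control libraries. The groups did not overlap and Myl7 fell by 1.25 on the log2 scale (limma, adjusted p = 0.0437). Of 14 cardiac genes 11 were tested, this one fell, beside 0.761% of all genes, all 11 were lower and the median was -1.11. That median was -0.44 with the fat score in the fit and -0.015 with the cardiac score, which is built from the same list, and the value of Myl7 was -0.55 and -0.13. Tnnc1, the troponin C of heart and slow muscle, averaged 8.38 ± 1.45 FPKM in SMD libraries and 22.5 ± 7.26 FPKM in control libraries (SD, n = 5 each) and fell by 1.28 on the log2 scale (limma, adjusted p = 0.019). Smpx and Cox8b, both of striated muscle, fell by 1.02 and 1.04 on the log2 scale, and Trarg1 and Lpl, genes of fat and muscle, by 0.81 and 0.80, all 4 named after their values were seen. With the cardiac score in the fit the log2 fold changes were -0.42 for Tnnc1, -0.12 for Smpx, -0.29 for Cox8b, -0.66 for Trarg1 and -0.43 for Lpl, and with the fat score they were -0.79, -0.44, -0.37, -0.55 and -0.31.

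Contractile genes of smooth muscle were mostly lower. Of 14 genes tested 1 fell, Myh11, the smooth muscle myosin heavy chain, beside 0.761% of all genes. An unadjusted p under 0.05 was reached by 8, all lower, beside 8.06% of all genes, and the median was -0.32. With the fat score as a covariate 2 were lower at that p and the median was -0.22. With the cardiac score these were 2 and -0.15. Myh11 averaged 10.7 ± 1.08 FPKM in SMD libraries and 14.3 ± 1.51 FPKM in control libraries (SD, n = 5 each), did not overlap, and fell by 0.38 on the log2 scale (limma, adjusted p = 0.0462), a call lost in each of the 10 fits that leave out 1 library. Rgs5 of pericytes fell by 0.65 and Agtr1a, the angiotensin II receptor, by 0.37 on the log2 scale, both named after their values were seen. Agtr1a too was called in none of the 10 fits, and Rgs5 overlapped between the groups.

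Cxcl15, a neutrophil-attracting chemokine that lung epithelium secretes in mice, rose in SMD lung. It had 302, 291, 303, 367 and 370 FPKM in SMD libraries, against 202, 224, 213, 208 and 192 FPKM in control libraries. The lowest SMD library lay well above the highest control library, the rise was 0.64 ± 0.10 (SE) on the log2 scale (limma, adjusted p = 0.00684), and it was called in all 10 fits that leave out 1 library. Cxcl16, the ligand of CXCR6 on T cells, averaged 21.8 ± 2.28 FPKM in SMD libraries and 15.5 ± 0.245 FPKM in control libraries (SD, n = 5 each) and rose by 0.46 (limma, adjusted p = 0.0167). It shares 18.3% of its exon bases with Zmynd15 on the other strand, and the strand setting of the counts is not stated. These 2 of 21 tested chemokines rose and none fell, set against the 0.291% of all genes that rose. The list median was 0.14, against 0.005 with the fat score and -0.049 with the cardiac score as a covariate. Of 17 tested alveolar type 2 genes Cxcl15 was the one that rose, 15 were higher, and the median was 0.18.

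Vcam1 was the 1 member of the inflammatory list that rose, of 15 tested, set against the 0.291% of all genes that rose. The other genes given beside it are not in that list. Tnfrsf12a, the receptor of the cytokine TWEAK, had 15.2, 16.3, 14.7, 18.6 and 17.7 FPKM in SMD libraries, against 11.6, 8.34, 8.83, 9.94 and 10.01 FPKM in control libraries. Casp4, the caspase that senses cytosolic lipopolysaccharide, had 8.07, 10.2, 11.6, 10.2 and 9.59 FPKM in SMD libraries, against 5.88, 7.48, 4.53, 6.72 and 4.79 FPKM in control libraries. Neither overlapped, and they rose by 0.71 and 0.68 on the log2 scale, with adjusted p-values of 0.00795 and 0.015 by limma, in all 10 fits that leave out 1 library. Bcl3, a nuclear regulator of NF-kappa-B, had 2.85, 4.37, 3.42, 3.71 and 3.60 FPKM in SMD libraries, against 0.996, 0.948, 2.33, 0.950 and 2.25 FPKM in control libraries. It rose by 0.92 ± 0.19 (SE) on the log2 scale (limma, adjusted p = 0.0285), the largest rise named here, and was called in 4 of the 10 fits. Vcam1, an adhesion molecule for leukocytes, rose by 0.45 (limma, adjusted p = 0.0344) with overlap between the groups, and the median of its list was 0.29. Fcgr4, an activating IgG receptor, rose by 0.53, named after its values were seen.

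Interferon-stimulated genes were mostly higher, with few calls. Of 22 genes tested 1 rose, Usp18, 21 were higher, 15 of them at an unadjusted p under 0.05, 6 did not overlap, and the median was 0.36. Of all genes 0.291% rose, 6.48% were higher at that p, and 2.09% were higher without overlap. Usp18, which removes ISG15 from proteins and dampens the interferon receptor, had 11.7, 12.96, 12.2, 10.8 and 14.2 FPKM in SMD libraries, against 9.17, 8.001, 7.91, 6.57 and 8.69 FPKM in control libraries. It rose by 0.56 ± 0.09 (SE) on the log2 scale (limma, adjusted p = 0.00684) and was called in all 10 fits that leave out 1 library. Ifi44l, an interferon-induced gene outside the list, averaged 3.41 ± 0.807 FPKM in SMD libraries and 1.36 ± 0.436 FPKM in control libraries (SD, n = 5 each). It rose by 0.90 without overlap (limma, adjusted p = 0.0395) and was called in 2 of those 10 fits. Eif2ak2, the double-stranded RNA sensor PKR, rose by 0.38 and was named after its values were seen.

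The guanylate-binding proteins and immunity-related GTPases, cell-autonomous defences induced by interferon gamma, were all higher without a call. Of 17 genes tested none was called by limma, all 17 were higher, 14 of them at an unadjusted p under 0.05, 6 did not overlap, and the median was 0.57. Over all genes 6.48% were higher at that p and 2.09% did not overlap with SMD higher. Tgtp2 had 17.5, 21.5, 11.8, 12.1 and 13.8 FPKM in SMD libraries, against 7.97, 8.71, 8.48, 7.33 and 8.85 FPKM in control libraries. Its log2 difference was 0.79 with an adjusted p of 0.0989 by limma, and its means in model and prednisone libraries were 10.4 and 27.4 FPKM. Gbp9 averaged 14.6 and 9.45 FPKM, and Tgtp1 10.1 and 5.38 FPKM, in SMD and control libraries. Tgtp1 and Tgtp2 are near-identical copies, so the split of reads between them is uncertain.

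Genes of class I antigen presentation were mostly higher too. Of 15 genes tested 1 rose, B2m, 14 were higher, 9 at an unadjusted p under 0.05, 5 did not overlap, and the median was 0.26. The shares of all genes were 0.291% that rose, 6.48% higher at that p and 2.09% higher without overlap. B2m, the light chain of every class I molecule, had 743, 708, 675, 741 and 681 FPKM in SMD libraries, against 602, 578, 520, 614 and 534 FPKM in control libraries. The groups did not overlap, and it rose by 0.32 ± 0.07 (SE) on the log2 scale (limma, adjusted p = 0.0397), a call that held in 1 of the 10 fits that leave out 1 library and a difference of the same 0.32 with the fat score as a covariate. H2-Q6 and H2-Q4, class I genes whose near-identical copies make the counting uncertain, rose by 0.58 and 0.43 and were named after their values were seen. The list's median was 0.30 with the covariate and 0.28 without control replicates 1, 4 and 5.

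The 250 bases before the RefSeq start of B2m on GRCm38.p6 are shown as the reference promoter of the one called gene of the list, on the plus strand at chr2:122147437-122147686.
B2m: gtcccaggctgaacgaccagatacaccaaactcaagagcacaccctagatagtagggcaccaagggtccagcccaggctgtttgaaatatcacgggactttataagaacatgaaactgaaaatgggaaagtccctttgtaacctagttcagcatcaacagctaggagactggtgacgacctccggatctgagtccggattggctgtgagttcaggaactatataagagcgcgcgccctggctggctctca

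**Figure D4:**
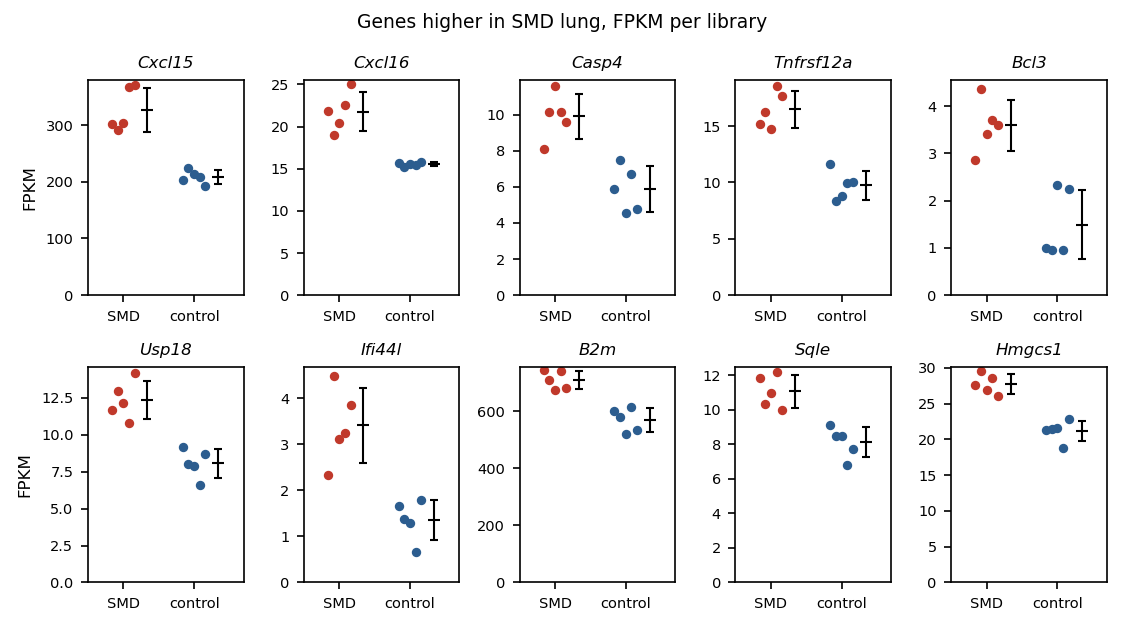
FPKM of 10 genes that rose in SMD lung, in each SMD and control library, with the group mean and SD (n = 5 each) beside the points. Cxcl15 lies between 291 and 370 FPKM in SMD libraries and between 192 and 224 FPKM in control libraries, and none of the 10 genes overlaps between the groups.

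Most genes of dendritic cells, MHC class II and macrophages were higher, and the called ones fell. Of 16 tested genes of dendritic cells and MHC class II none rose, 14 were higher, and the median was 0.33. At an unadjusted p under 0.05, 6 were higher and 2 lower, beside 6.48% and 8.06% of all genes. In this list Zbtb46, the transcription factor of classical dendritic cells, fell, beside 0.761% of all genes. It averaged 3.28 FPKM in SMD libraries and 5.48 FPKM in control libraries (limma, log2 fold change -0.61, adjusted p = 0.038). That call held in 1 of the 10 fits that leave out 1 library. Among 17 genes of interstitial macrophages and complement C1q none was called by limma, 13 were higher, and the median was 0.25. At an unadjusted p under 0.05, 4 were higher and 2 lower. Cd163, a scavenger receptor that glucocorticoids induce, averaged 1.01 and 2.51 FPKM, Cx3cr1, the fractalkine receptor, 2.43 and 1.23 FPKM, and C1qa 28.5 and 22.5 FPKM, in SMD and control libraries. Of 15 tested alveolar macrophage genes 11 were higher and Fabp4, which is also a fat gene, fell, beside the same 0.761%. The median was 0.22. With the fat score as a covariate the medians of these lists, in the order given, were 0.24, 0.20 and 0.07. With the cardiac score they were 0.23, 0.135 and 0.03.

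The type 2 cytokine axis of asthma showed no called gene. Of 21 genes 10 were tested, none was called by limma, and the median was 0.16. At an unadjusted p under 0.05, 4 were higher, beside 6.48% of all genes. Retnla, a secreted product of alternatively activated macrophages and epithelium, averaged 39.7 ± 5.27 FPKM in SMD libraries and 27.4 ± 3.75 FPKM in control libraries (SD, n = 5 each), without overlap and with an adjusted p of 0.132 by limma. Gata3, the transcription factor of type 2 lymphocytes, averaged 1.51 and 0.952 FPKM, and Csf2rb, the shared receptor chain for interleukins 3 and 5, 5.30 and 3.00 FPKM. The effector cytokines were too low to test, at 0.413 and 0.321 FPKM for Il4, 0.203 and 0.0750 FPKM for Il5, and 0.0212 and 0.00608 FPKM for Il13, in SMD and control libraries.

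Other genes tied to asthma were not called or too low to test. The alarmin Il33 averaged 17.5 and 15.6 FPKM and Tslp 4.84 and 5.22 FPKM, the eosinophil chemokine Ccl11 1.12 and 1.70 FPKM, Ccl17 3.64 and 3.40 FPKM, and the inflammatory cytokine Il1b 5.85 and 3.03 FPKM, in SMD and control libraries. Chil3, a chitinase-like protein, averaged 48.3 and 32.5 FPKM, and Alox5, the first enzyme of leukotriene synthesis, 2.30 and 1.66 FPKM. None of these 7 was called by limma, and 4 had an unadjusted p under 0.05. Ccl17 averaged 8.96 FPKM in the model group. Muc5ac, Clca1, Ccl24, Tnf, Ighe and Chrm3 stayed under the filter, at means of 0.114, 0.0488, 0.685, 0.411, 0.0266 and 0.259 FPKM in SMD libraries and 0.111, 0.0610, 0.832, 0.572, 0.0213 and 0.438 FPKM in control libraries.

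No airway secretory gene was called. Of 13 tested club and mucous cell genes none was called by limma, 11 were lower and 2 higher, and the median was -0.28. At an unadjusted p under 0.05, 4 were lower, beside 8.06% of all genes. Bpifa1, an antimicrobial and surfactant protein of the upper airways, had 121, 147, 172, 42.0 and 84.0 FPKM in SMD libraries, against 530, 207, 434, 319 and 753 FPKM in control libraries. Its groups did not overlap, and the log2 difference was -1.998 ± 0.51 (SE) with an adjusted p of 0.0665 by limma. Reg3g, an antibacterial lectin, averaged 11.98 and 47.2 FPKM, Ltf, lactoferrin, 16.01 and 40.2 FPKM, and the mucin Muc5b 2.06 and 2.66 FPKM, in SMD and control libraries.

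Adrenergic and muscarinic genes, the receptors on which ephedrine and bronchodilators act with their signalling partners, had no call. Of 19 genes 10 were tested, and the median was -0.13. At an unadjusted p under 0.05, 4 were lower and none higher, beside 8.06% and 6.48% of all genes. The cyclic nucleotide phosphodiesterases Pde3a and Pde3b averaged 5.06 and 6.42 FPKM, and 2.18 and 3.04 FPKM, in SMD and control libraries.

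Of 19 tested genes of cholesterol and fatty acid synthesis 2 rose, Hmgcs1 and Sqle, beside 0.291% of all genes, none fell, and the median was 0.05. Hmgcs1, the synthase ahead of the rate-limiting step, had 27.6, 29.6, 26.9, 28.5 and 26.1 FPKM in SMD libraries, against 21.3, 21.4, 21.6, 18.8 and 22.8 FPKM in control libraries. Sqle, squalene epoxidase, averaged 11.1 ± 0.945 FPKM in SMD libraries and 8.14 ± 0.884 FPKM in control libraries (SD, n = 5 each). Neither gene overlapped, and they rose by 0.37 and 0.40 on the log2 scale, with adjusted p-values of 0.0237 and 0.0317 by limma. Hmgcs1 was called in 6 and Sqle in 4 of the 10 fits that leave out 1 library.

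Xenobiotic and antioxidant enzymes gave 1 rise and 2 falls among 23 tested, beside 0.291% and 0.761% of all genes, with a median of -0.13. Srxn1, which repairs peroxiredoxins, averaged 6.02 and 4.68 FPKM and rose by 0.31, and Gsta3, a glutathione transferase, averaged 83.3 ± 10.6 FPKM in SMD libraries and 131 ± 11.2 FPKM in control libraries (SD, n = 5 each) and fell by 0.66 on the log2 scale without overlap (limma, adjusted p = 0.0347). The other fall was that of Cyp2e1 above, whose log2 fold change was -0.25 with the fat score as a covariate. Herpud1 of endoplasmic reticulum degradation was the 1 of 18 folding genes that fell, by 0.43, and Slc30a1, the zinc exporter of the cell surface, the 1 of 6 metallothionein and zinc genes, by 0.31 on the log2 scale. Glul was the 1 of 12 genes of amino acid metabolism that fell.

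Energy genes were slightly lower, and none was called by limma. Of 25 nuclear genes of the respiratory chain 24 were lower, 11 of them at an unadjusted p under 0.05, beside 8.06% of all genes. The median was -0.14, against -0.03 with the fat score as a covariate. Uqcrfs1 averaged 34.7 and 39.9 FPKM, and Ndufa4 122 and 144 FPKM, in SMD and control libraries. All 13 mitochondrially encoded genes were lower, 5 of them at an unadjusted p under 0.05, with a median of -0.16. Among them mt-Nd3 averaged 612 and 765 FPKM, mt-Nd1 2220 and 2565 FPKM, and mt-Atp8, which shares 21.1% of its bases with mt-Atp6, 2171 and 2635 FPKM.

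The remaining named rises belong to no common list. Wnt7a, a Wnt ligand of the epithelium, had 2.39, 2.64, 2.35, 3.07 and 3.01 FPKM in SMD libraries, against 0.994, 1.51, 1.35, 1.06 and 1.17 FPKM in control libraries. It rose by 0.74 ± 0.13 (SE) on the log2 scale without overlap (limma, adjusted p = 0.0162). Wnt7a was the 1 call among 24 tested Wnt genes, beside 0.291% of all genes that rose, and the median of that list was -0.05. Bcl6b, a transcriptional repressor, and Ndnf, a secreted factor, rose by 0.78 each, Spon2, a matrix protein, by 0.72, Rnd1, a small GTPase, and Ccdc84 by 0.65 each, and Nek2, a kinase of the centrosome, by 0.63. Among these, Rnd1 was called in 9 of the 10 fits that leave out 1 library and the others in 1 to 3. Named after their values were seen, Hbegf, an EGF receptor ligand, rose by 0.61, Thbs1, a matrix protein that activates TGF-beta, by 0.89 with overlap, Ccnd1, a G1 cyclin, by 0.43, Gmnn, an inhibitor of replication licensing, by 0.36, and Adora2a, an adenosine receptor, by 0.57. Ccnd1 shares 23.4% of its exon bases with LTO1 on the other strand. Ccdc84 shares 5.0% with Rps25 on the other strand, which averaged 275 FPKM over SMD and control libraries. Ccdc84 itself averaged 12.9 and 8.16 FPKM in SMD and control libraries. Its value is uncertain, since the strand setting of the counts is not stated. The tubulins Tubb6, Tubb4b and Tuba1c rose by 0.63, 0.33 and 0.28, also named after their values were seen, and they belong to a family of like sequence.

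Replication and mitosis genes were higher in all 18 tested, with a median of 0.30 and none called by limma. An unadjusted p under 0.05 was reached by 6, beside 6.48% of all genes that were higher. Birc5, an inhibitor of apoptosis of dividing cells, averaged 3.27 and 1.73 FPKM, Mki67 2.03 and 1.17 FPKM, and Mcm3, of the replicative helicase, 6.54 and 5.06 FPKM, in SMD and control libraries. For all 3 the groups overlapped.

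Genes of alveolar type 1 cells, endothelium, matrix and prostaglandin synthesis had no call by limma. Over all genes, 6.48% were higher and 8.06% lower at an unadjusted p under 0.05. Among 16 alveolar type 1 genes tested 4 were higher and 3 lower at an unadjusted p under 0.05, the median was 0.07, and Aqp5, a water channel, averaged 81.3 ± 5.12 FPKM in SMD libraries and 61.8 ± 6.76 FPKM in control libraries (SD, n = 5 each), without overlap and with an adjusted p of 0.0529 by limma. Akap5 averaged 34.3 and 26.2 FPKM, and Cav1, of caveolae, 285 and 354 FPKM. Among 23 endothelial genes 1 was higher and 5 lower at an unadjusted p under 0.05, the median was -0.12, and Gja5, an arterial connexin, averaged 16.5 and 11.7 FPKM, Ednrb, an endothelin receptor, 16.4 and 20.6 FPKM, and Ptprb 35.6 and 43.4 FPKM. Of 22 matrix genes 6 were higher and 3 lower at that level, the median was 0.22, and Timp1 averaged 5.48 and 3.79 FPKM, Dcn 51.0 and 70.5 FPKM, and Tnc, an injury matrix protein, 3.25 and 1.14 FPKM without overlap. In prostaglandin and leukotriene synthesis 3 of 18 genes were higher and 2 lower, the median was 0.05, and Ptgis averaged 24.5 and 30.2 FPKM, Hpgd 137 and 200 FPKM, and Tbxas1 2.68 and 0.635 FPKM, in SMD and control libraries. Tbxas1, thromboxane synthase, had 3.42, 0.297, 3.64, 2.76 and 3.26 FPKM in SMD libraries, against 0.245, 0.262, 2.22, 0.192 and 0.255 FPKM in control libraries, so 1 library on each side stood with the other group.

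The 16 lists described by count only, among them B cells, T cells, neutrophils, mast cells, plasma cells, heat shock chaperones, ribosomal proteins, glycolysis and motile cilia, had no gene called by limma. An unadjusted p under 0.05 was reached by 9 higher and 17 lower of their 225 tested genes, beside 6.48% and 8.06% of all genes. List medians ran from -0.34 in skeletal muscle to 0.35 in red cells.

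**Figure D5:**
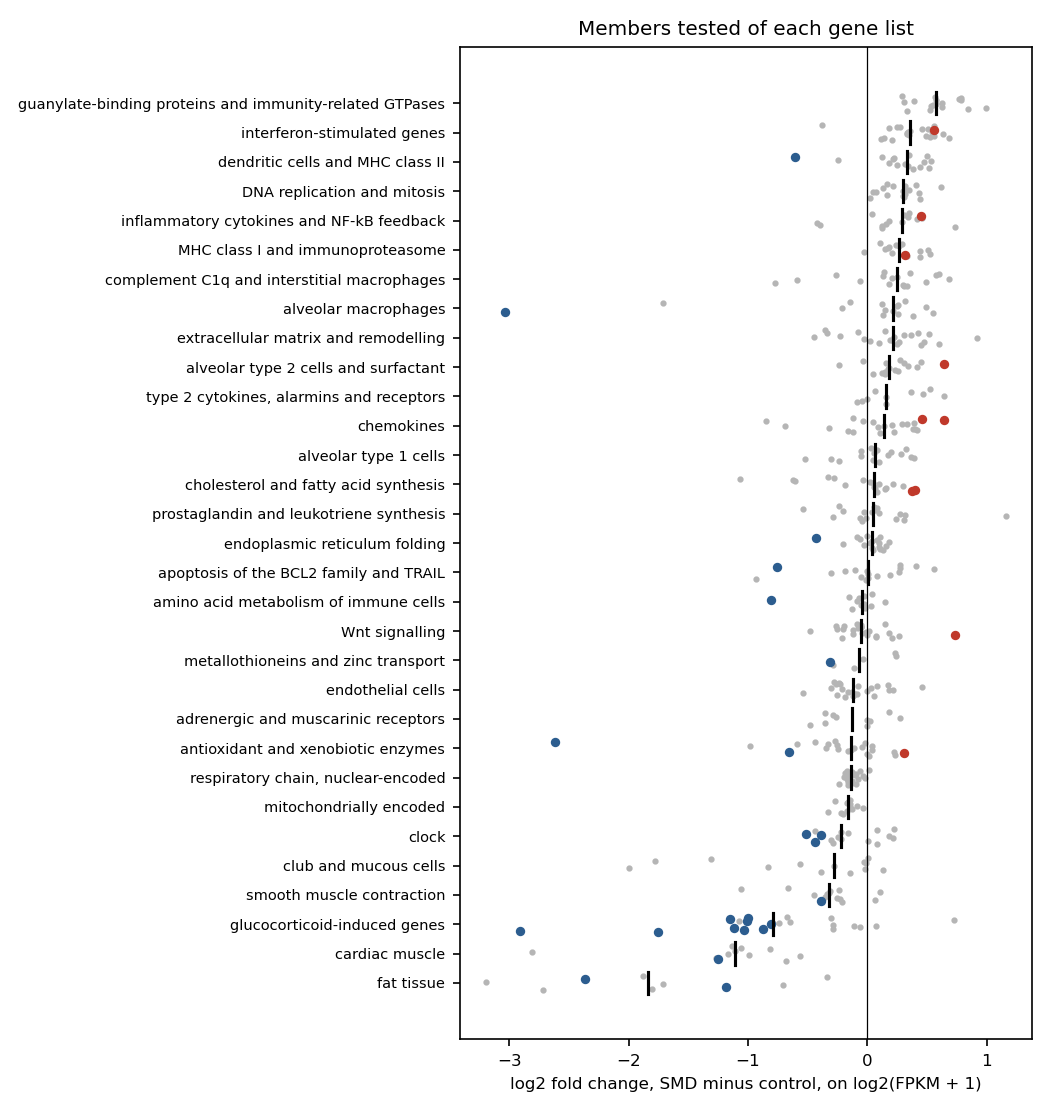
Log2 fold change (SMD minus control, on log2(FPKM + 1)) of every tested member of the 31 lists whose members are named, with called members in red where they rose and blue where they fell, uncalled members in grey, and a black bar at the median. The medians run from 0.57 for the guanylate-binding proteins and immunity-related GTPases to -1.84 for fat, and the glucocorticoid list, at -0.79, holds the most called members.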

How the data were processed

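Per the labels' protocols, total lung RNA came from a TRIzol extraction, and paired reads were taken on an Illumina NovaSeq from NEBNext Ultra libraries. The authors deposited FPKM values, 1 table for all 20 libraries. The build GRCm38 and the programs HISAT2, featureCounts, fastp and DESeq2 are named per the submitters' processing notes. Versions, roles, annotation and strand setting are not given in the sources. Of 54532 gene identifiers, 54409 were paired with a symbol and position through GENCODE vM21, and 16574 were 0 in every library. Low FPKM values of single-exon genes were whole multiples of 1 read for at most 13.5% to 23.9% of values per library (within 0.05, where chance gives 10%), so depth is unknown and no counting interval is given.

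Groups came from the treatment labels; for prednisone replicate 5 the title was used. The 15106 genes that reached an FPKM of 1 in 5 or more of the 20 libraries were tested with limma 3.58.1 in R 4.3.3 on log2(FPKM + 1), all 4 groups in 1 fit without covariates, with an intensity trend, 16 residual degrees of freedom and Benjamini-Hochberg adjustment over all genes tested. A fold change on this scale understates the change of low genes. Scores of whole libraries were compared by exact permutation tests in SciPy 1.17.1. The procedure was tested on simulated data.

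The 47 gene lists, the 25 genes named whatever their result and the tests were chosen with earlier results of these data known. Named genes are the 12 largest changes each way among called genes without overlap, leaving out predicted genes, pseudogenes, receptor and antibody segments and genes under 200 bases; up to 4 called members of each of 31 lists, or 3 uncalled members with the smallest p where none was called; and the 25 genes. The values of 2 genes that the rule names are not reported here. A further 31 were chosen after their values were seen. Where a symbol has more than 1 identifier, the one with the highest mean was used. Symbols with near-identical copies, and genes sharing exon bases on the other strand, are uncertain. Promoter windows are those of RefSeq on GRCm38.p6, which held an entry for 105 of the 159 called genes. Alternatives were other scalings, pseudocounts, filters, library weights, tissue scores as covariates, a replicate block, the SMD and control libraries alone, and leaving out libraries.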

Additional observations from a re-analysis of the deposited data

Results flagged for a closer look

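Each library was compared with the 4 others of its group, and 21 of 270 groups had a highest or lowest library apart from the rest, where chance gives about 14, or 1 in 20. SMD replicate 1 was the highest SMD library for Fam107a (2.51 FPKM, against a median of 1.33 in the other 4), Map3k6 (4.62 against 2.43), Klf15 (19.9 against 8.69), Glul (162 against 106) and Cd163 (1.49 against 0.894). Among other SMD libraries, replicate 3 was highest for Retnla (48.9 FPKM) and Il13 (0.0710), replicate 4 for Slc30a1 (11.2) and Rgs5 (1.77), and replicate 5 for Eif2ak2 (9.50), while replicate 2 was lowest for Il33 (13.9) and Tbxas1 (0.297). Among control libraries, replicate 4 was highest for Fam107a (12.3 FPKM) and Hpgd (277) and lowest for Scgb1a1 (46650), replicate 5 was highest for Reg3g (98.1) and Thbs1 (12.5), and replicate 3 for Tbxas1 (2.22). Control replicate 1 was highest for Il13 (0.0245 FPKM), for the sum of FPKM (522400) and for the share of that sum taken by 7SL and 7SK RNA (7.50%, against 0.34% in the median of the others).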

How the results depend on the processing

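The 159 calls (44 higher, 115 lower in SMD) became 1 (1 and 0) with the cardiac score as a covariate, and 0 (0 and 0) with the fat score, with both scores, and without control replicates 1, 4 and 5, where by limma 880, 932, 776 and 1089 genes had an unadjusted p under 0.05. Library weights gave 92 (29 and 63) and no filter, which tests more genes, 35 (12 and 23). The number higher was 91 under quantile normalization, 74 under median-of-ratios scaling and 72 from the SMD and control libraries alone. Leaving out 1 library gave between 19 and 217 calls, from 7 to 63 higher and 12 to 154 lower. The cause of these moves was not tested. The other settings, pseudocounts of 0.1 and 5 and the stricter filter of 10 libraries, gave 166, 130 and 178 calls. The correlations of deviations of same-numbered SMD and control libraries were -0.14, 0.04, 0.12, 0.24 and -0.13, and the replicate block gave 171 calls. These correlations were not set against those of other pairs, so they cannot decide whether replicate numbers pair the libraries. Every called gene kept its direction in each setting that tested it. Among the named genes the direction turned for 3, all uncalled, and other uncalled genes were not followed. Ccl11 was 0.0442 with both scores, 0.0049 with the fat score and 0.0116 without control replicates 1, 4 and 5. Ccl17 was -0.17 with the cardiac score and -0.10 with both scores. When 1 library was left out, Ccl17 ran between -0.0317 and 0.1923. It was below 0 without SMD replicate 3 (-0.0258) and control replicates 3 and 5 (-0.0317 and -0.0062). Nr3c1 was -0.0069 with the fat score. When 1 library was left out, Nr3c1 ran from -0.0056, without SMD replicate 4, to 0.0721. Genes not overlapping numbered 704, and 682 to 1023 over the settings that recomputed them. Depth is unknown, so no limit on low genes can be given.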
